A study of Mus musculus with 2 samples.

Results

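The values concern 8 genes of the aryl hydrocarbon receptor (AHR) pathway, *Ahr*, *Arnt*, *Ahrr*, *Tiparp*, *Cyp1a1*, *Cyp1b1*, *Nqo1* and *Aldh1a1*, out of 32285 genes counted in single cells of mouse tumors. The genes were picked by name, with the levels of these same cells already known, so that their levels and ratios are a description and no test was made of them. A Control and a *Dnmt1*iECKO library, 1 of each, were made with the 10x Genomics 3′ single-cell kit from live CD31+CD45- tumor endothelial cells (TECs) sorted from tumors of 3 pooled female mice per library, aged 8 to 10 weeks. Both groups carried YUMMER1.7, an immunogenic mouse melanoma line. The *Dnmt1*iECKO mice were labelled *Cdh5*CreERT2;*Dnmt1*fl/fl;*ZsGreen*lsl/lsl, in which the *Cdh5* promoter drives a tamoxifen-dependent Cre in endothelial cells (ECs), while the control mice were labelled C57BL/6 and, in the study's methods, carried the Cre and the reporter too. The labels place the tumors under the skin, whereas the methods describe lung tumors after tail vein injection, and cells with the alveolar markers *Ager* and *Sftpc* were present. The labels also name the cells melanoma cells, although the endothelial genes *Cdh5* and *Pecam1* had 1329 and 1323 CPM in the control TECs and 1240 and 1216 CPM in the *Dnmt1*iECKO TECs. CPM stands for the UMIs (counted molecules) of a gene in a group of cells, scaled to 1000000 UMIs of all genes in that group.

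AHR is a transcription factor that binds small aromatic molecules, among them dioxins and products of tryptophan. It waits in the cytoplasm with the chaperone HSP90, enters the nucleus upon binding a ligand, pairs with ARNT and binds DNA with the core GCGTG. Its best known target is *Cyp1a1*, a cytochrome P450 that oxidizes many of these ligands, and it induces its own brakes, *Ahrr* and *Tiparp*. Vascular endothelium of the lung is known for the induction of *Cyp1a1* by such ligands.

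The stretches upstream of 4 of these genes are shown since they are known targets of the receptor and differ in how often they hold its core. RefSeq start sites of GRCm38.p6 were listed for 7 of the 8 genes. Each sequence below has the 250 bases before the start, 5′ to 3′ in the sense of the gene, with every GCGTG, or CACGC for the other strand, in capitals.

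Cyp1a1, chr9:57697363-57697612, plus strand: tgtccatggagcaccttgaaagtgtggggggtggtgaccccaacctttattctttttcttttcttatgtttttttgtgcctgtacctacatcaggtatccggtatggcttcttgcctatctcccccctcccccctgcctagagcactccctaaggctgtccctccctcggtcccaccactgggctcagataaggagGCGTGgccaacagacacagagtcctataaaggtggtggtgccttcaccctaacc
Cyp1b1, chr17:79715062-79715311, minus strand: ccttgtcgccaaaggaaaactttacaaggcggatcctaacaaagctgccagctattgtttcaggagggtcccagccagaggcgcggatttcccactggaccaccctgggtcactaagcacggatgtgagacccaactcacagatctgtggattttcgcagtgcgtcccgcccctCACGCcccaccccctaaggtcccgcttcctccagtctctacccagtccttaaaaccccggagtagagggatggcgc
Nqo1, chr8:107403206-107403455, minus strand: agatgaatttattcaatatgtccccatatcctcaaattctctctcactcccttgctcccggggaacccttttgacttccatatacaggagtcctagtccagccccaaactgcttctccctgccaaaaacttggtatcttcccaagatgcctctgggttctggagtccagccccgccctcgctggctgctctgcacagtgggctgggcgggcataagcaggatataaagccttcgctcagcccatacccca
Ahrr, chr13:74292332-74292581, minus strand: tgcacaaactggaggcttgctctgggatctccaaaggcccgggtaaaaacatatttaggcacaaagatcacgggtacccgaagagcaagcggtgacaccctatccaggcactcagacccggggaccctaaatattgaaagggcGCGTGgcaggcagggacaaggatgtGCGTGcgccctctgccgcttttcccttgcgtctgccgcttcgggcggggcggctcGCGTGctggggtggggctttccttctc

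The *Cyp1a1* stretch held 1 match, which began 54 bases before the start. The *Cyp1b1* stretch also held 1, 76 bases before the start and on the other strand. The *Ahrr* stretch held 3, while that of *Nqo1* held none. Among 32851 such windows, 28.2% held at least 1 match and 2.77% held at least 3. A match is no proof of a site, and no match says only that these letters are not in this window. The *Cyp1a1* window had 3 CpG dinucleotides, that of *Nqo1* 5, that of *Cyp1b1* 12 and that of *Ahrr* 17, against a median of 6 over all windows. Methylation was not measured in these libraries.

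The control library had 9301 cells and 123830489 UMIs and the *Dnmt1*iECKO library 9522 cells and 141433493 UMIs, with medians of 8904 and 8762 UMIs per cell, and 29 cell barcodes occurred in both. After filtering, 4854 control and 2066 *Dnmt1*iECKO cells with a UMI of *Cdh5* or *Pecam1* and none of *Ptprc*, *Epcam*, *Cspg4* or *Myh11* were kept as TECs, holding 55686050 and 25792677 UMIs. *Dnmt1*, the targeted gene, had 49.0 CPM in control and 26.7 CPM in *Dnmt1*iECKO TECs, with 95% counting intervals of 47.2 to 50.9 and 24.7 to 28.7 CPM (log2 ratio −0.88). UMIs of a 3′ kit can lie outside the deleted part of the gene, so this level does not measure the deletion. In the *Slc6a2*+*Selp*+ class described next it was 35.7 CPM in control and 39.5 CPM in *Dnmt1*iECKO, from 30 and 48 UMIs. The ratio there was 0.15 (−0.54 to 0.85), so a lower level was not shown, though the interval allows one. *Gja5*+*Bmx*+ cells, with 11 and 7 UMIs, were not resolved either, with a ratio of −0.71 (−2.32 to 0.78). TECs were divided by marker pairs into 1045 and 317 *Ednrb*+*Car4*+ cells (aerocyte-like), 1987 and 797 *Kit*+*Bmp6*+ cells (general capillary-like), 54 and 66 *Slc6a2*+*Selp*+ cells (vein-like), and 31 and 30 *Gja5*+*Bmx*+ cells (artery-like), in control and *Dnmt1*iECKO respectively. Of 8 further markers per class, 8 were highest in the *Ednrb*+*Car4*+ cells of both libraries but only 4 in the *Kit*+*Bmp6*+ cells, whose name is therefore weakly supported. The other 2 classes led in 6 or 7 of theirs. All intervals cover counting error only, and with 1 library per condition a difference between the libraries cannot be told apart from a difference between any 2 pools of mice.

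*Cyp1a1* showed the widest gap among the 8 genes. Its level was 223 CPM in control TECs and 37.7 CPM in *Dnmt1*iECKO TECs, 5.92-fold higher in the control (5.54 to 6.32), or a log2 ratio of −2.56 (−2.66 to −2.47). Over 13011 genes that reached 100 UMIs over the libraries, it was the 7th lowest ratio, and the median of all was −0.01. Of the 7 pathway genes with that many UMIs, 2 were at least 1.5-fold lower in *Dnmt1*iECKO TECs, *Cyp1a1* and *Nqo1*, where 2.05% of all genes were. Another 2, *Cyp1b1* and *Aldh1a1*, were at least 1.5-fold higher, where 7.69% of all genes were. Under other choices of cells the log2 ratio of *Nqo1* came to −0.10 and that of *Aldh1a1* to 0.43. That of *Cyp1b1* turned to −0.41 under an alternative chosen after seeing the data. Each of these values is within 1.5-fold. *Ahr*, *Arnt* and *Tiparp* stayed within that fold, and *Ahrr* had too few UMIs to be counted. Since the genes were picked with this contrast known, nothing is read from these shares.

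**Figure D1:**
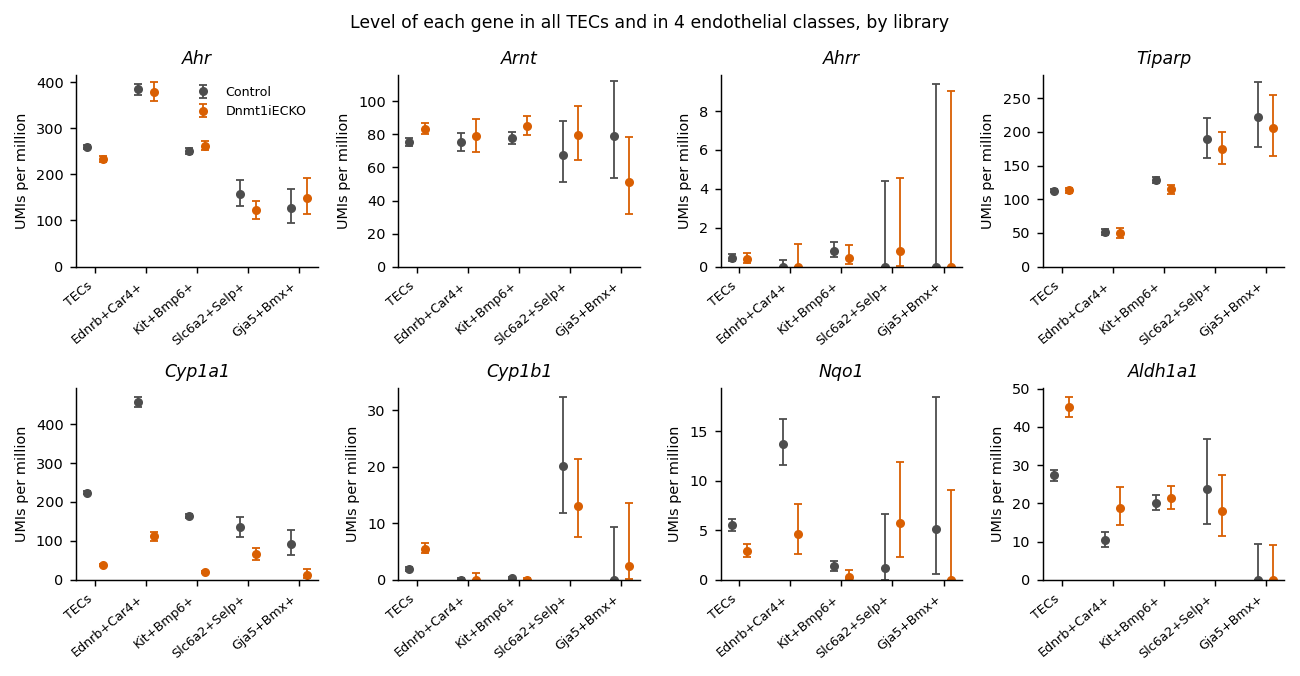
Level of each of the 8 genes (CPM, vertical axis from 0) in all TECs and in 4 endothelial classes, with Control in grey and *Dnmt1*iECKO in orange, points for 1 library each and bars for exact Poisson 95% intervals. *Cyp1a1* was lower in *Dnmt1*iECKO in every class shown, while the points of *Ahr*, *Arnt* and *Tiparp* lay close together in most classes.

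The receptor itself was measured in most TECs. *Ahr* had 260 CPM in control and 234 CPM in *Dnmt1*iECKO TECs, with a UMI in 72.8% and 71.4% of cells. Its log2 ratio was −0.15 (−0.20 to −0.11). Within the 2 largest marker pair classes the libraries were closer than that. This did not hold in TECs outside the classes, which had no complete class pair or more than 1. They had 217 and 185 CPM, a ratio of −0.23 (−0.30 to −0.15). *Ahr* had 385 CPM in control and 380 CPM in *Dnmt1*iECKO *Ednrb*+*Car4*+ cells, a log2 ratio of −0.02 (−0.11 to 0.07). In *Kit*+*Bmp6*+ cells it had 251 and 263 CPM, a log2 ratio of 0.07 (−0.00 to 0.14). The *Ednrb*+*Car4*+ class, where *Ahr* was highest, made up 21.5% of the control TECs but 15.3% in *Dnmt1*iECKO. With the class composition of the control the ratio over all TECs was −0.050. In *Slc6a2*+*Selp*+ cells the level was 158 CPM in control and 122 CPM in *Dnmt1*iECKO, a log2 ratio of −0.38 (−0.73 to −0.03) that turned to 0.040 when the marker pair only had to sum to 2 UMIs. *Gja5*+*Bmx*+ cells had 128 and 149 CPM, with an interval of the ratio from −0.34 to 0.79.

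Across cell types, *Ahr* was highest in *Ednrb*+*Car4*+ cells in both libraries. Among the endothelial classes of the control library the order ran from *Ednrb*+*Car4*+ cells at 385 CPM to *Kit*+*Bmp6*+ cells at 251 CPM, whose intervals were apart, and then to *Slc6a2*+*Selp*+, *Mki67*+*Top2a*+ (proliferating) and *Gja5*+*Bmx*+ TECs at 158, 156 and 128 CPM, which overlapped. Lymphatic-like *Prox1*+*Mmrn1*+ TECs had 74.4 CPM in control and 152 CPM in *Dnmt1*iECKO, in only 38 and 20 cells. Macrophage-like cells were at 68.0 and 65.7 CPM. T cell-like cells had 46.1 and 43.9 CPM, and fibroblast-like cells 27.6 and 29.0 CPM. Natural killer cell-like cells held 1 *Ahr* UMI in 38 control cells and 11 in 115 *Dnmt1*iECKO cells, or 3.72 and 14.1 CPM. Dendritic cell-like cells, with 288 CPM in 7 control and 220 CPM in 29 *Dnmt1*iECKO cells, stood between the *Ednrb*+*Car4*+ and *Kit*+*Bmp6*+ cells in the control, overlapping with both (209 to 387 CPM), and below both in *Dnmt1*iECKO.

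*Arnt*, the partner that AHR needs to bind DNA, had 75.4 CPM in control and 83.5 CPM in *Dnmt1*iECKO TECs, which gives a log2 ratio of 0.15 (0.07 to 0.22), so that the intervals were apart but the gap was 1.11-fold. *Ednrb*+*Car4*+ cells had 75.3 and 79.0 CPM, and in *Kit*+*Bmp6*+ cells 78.0 and 85.2 CPM. *Gja5*+*Bmx*+ cells held 31 control and 21 *Dnmt1*iECKO UMIs of *Arnt*, a log2 ratio of −0.62 whose interval ran from −1.50 to 0.22. Over 17 cell classes the control levels went from 29.8 CPM in alveolar type 2-like to 142 CPM in B cell-like cells, and all neighbours in that order overlapped except the lowest pair, although B cell-like and monocyte-like cells, at 142 and 55.3 CPM, lay apart.

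The 2 feedback genes differed from each other. *Ahrr*, the repressor that competes with AHR for ARNT, was nearly silent in TECs, with 25 UMIs in 23 control cells and 10 UMIs in 9 *Dnmt1*iECKO cells. That came to 0.449 and 0.388 CPM, a log2 ratio of −0.21 with an interval from −1.43 to 0.90, and the libraries were not distinguishable at this depth. In *Ednrb*+*Car4*+ cells, where *Cyp1a1* was highest, *Ahrr* had no UMI in either library, and 3 UMIs would be 0.288 CPM in control and 0.929 CPM in *Dnmt1*iECKO. *Kit*+*Bmp6*+ cells held 18 and 4 of its UMIs. Macrophage-like cells held 5 and 24, or 1.01 and 2.00 CPM.

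*Tiparp*, an ADP-ribosyltransferase that marks AHR for shutdown, was at the same level in both libraries. It had 113 CPM in control and 113 CPM in *Dnmt1*iECKO TECs, which gives a log2 ratio of 0.00 (−0.06 to 0.07). In the control its order over the 4 classes ran opposite to that of *Cyp1a1*. *Ednrb*+*Car4*+ cells were lowest among the endothelial classes with 51.8 CPM in control and 49.6 CPM in *Dnmt1*iECKO. *Kit*+*Bmp6*+ cells had 128 and 115 CPM, a log2 ratio of −0.16 (−0.26 to −0.06). *Slc6a2*+*Selp*+ cells had 189 and 175 CPM, and *Gja5*+*Bmx*+ cells 222 and 205 CPM, with overlapping intervals between the libraries. The log2 ratio in *Gja5*+*Bmx*+ cells moved from −0.11 to −1.58 when classes were gated after thinning. Neutrophil-like cells had the highest level of the 17 classes, 1286 CPM in control and 1142 CPM in *Dnmt1*iECKO, and macrophage-like cells had 301 and 287 CPM.

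**Figure D2:**
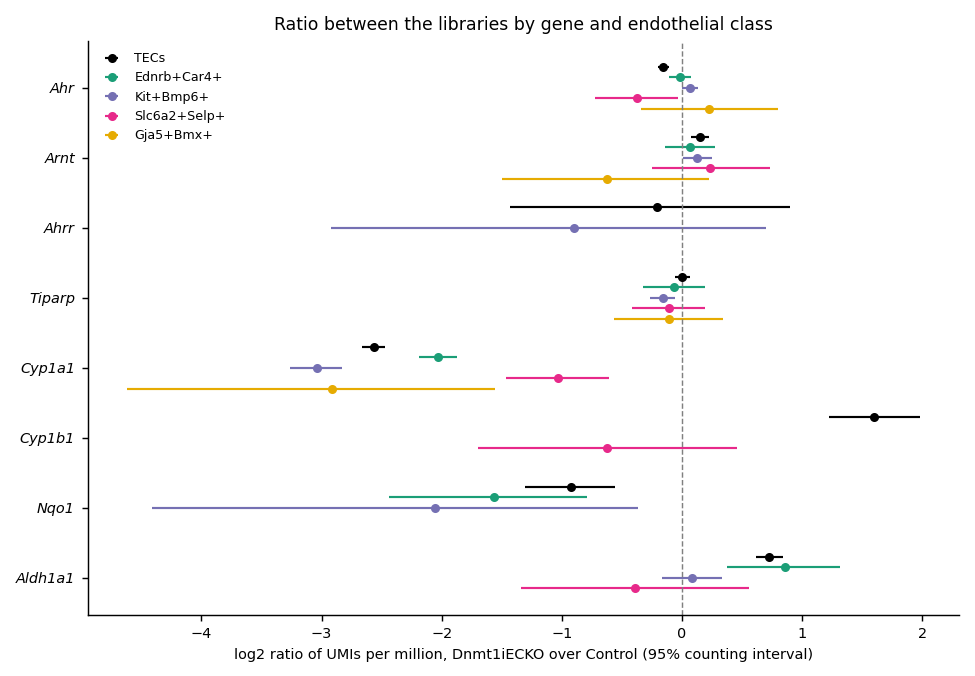
Log2 ratio of CPM, *Dnmt1*iECKO over Control, for each gene (vertical axis) in all TECs and in 4 endothelial classes (colors), with 95% counting intervals and only where both libraries had UMIs and together at least 20. The points of *Cyp1a1* lay between −3.04 and −1.03 in all 5 groups of cells, and those of *Ahr* between −0.38 and 0.23.

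In the target genes, *Cyp1a1* was highest in *Ednrb*+*Car4*+ cells, with 457 CPM in control and 112 CPM in *Dnmt1*iECKO, a log2 ratio of −2.03 (−2.19 to −1.88). *Kit*+*Bmp6*+ cells had 164 CPM in control and 19.9 CPM in *Dnmt1*iECKO, the widest ratio of the 2 large classes with −3.04 (−3.26 to −2.83). *Slc6a2*+*Selp*+ cells had 134 and 65.8 CPM, a ratio of −1.03 (−1.46 to −0.61). The level was lower in *Dnmt1*iECKO in all 3 of these classes with intervals apart, and the intervals of the 3 ratios were apart from each other too, although the difference between classes was not tested.

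The smaller groups had few UMIs. *Gja5*+*Bmx*+ cells held 36 control and 5 *Dnmt1*iECKO UMIs of *Cyp1a1*, or 91.9 and 12.2 CPM, a log2 ratio of −2.91 (−4.62 to −1.56). *Mki67*+*Top2a*+ TECs were at 34.3 and 4.86 CPM, with a ratio of −2.82 (−3.92 to −1.89). *Prox1*+*Mmrn1*+ cells held 9 and 5 UMIs, 15.2 CPM in both libraries, which leaves a ratio anywhere between −1.93 and 1.73. The order of the classes differed between the libraries, since *Kit*+*Bmp6*+ cells stood second with 164 CPM in control, overlapping with *Slc6a2*+*Selp*+ cells, but below the latter with intervals apart in *Dnmt1*iECKO.

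Both the number of cells with *Cyp1a1* and the amount in each were lower in *Dnmt1*iECKO. A UMI was found in 46.6% of control TECs (45.2 to 48.0%, Clopper-Pearson) and in 14.5% of *Dnmt1*iECKO TECs. After each cell was thinned to 2000 UMIs, which left 4497 control and 1894 *Dnmt1*iECKO cells and dropped 357 and 172, the shares were 26.8% and 6.65%. Cells with at least 1 UMI held 5.50 on average in control and 3.25 in *Dnmt1*iECKO. At least 10 UMIs were found in 370 control TECs, or 7.62%, and in 18 *Dnmt1*iECKO TECs, or 0.871%. The highest cell held 53 in control and 36 in *Dnmt1*iECKO, so strong cells remained in *Dnmt1*iECKO but were few.

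**Figure D3:**
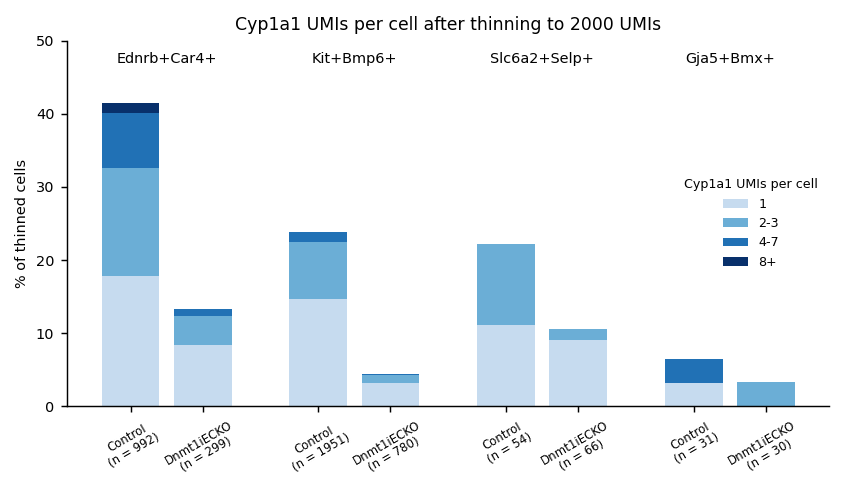
Share of cells (%, vertical axis from 0) with 1, 2 to 3, 4 to 7 and at least 8 *Cyp1a1* UMIs after thinning to 2000 UMIs per cell, stacked, in 4 endothelial classes of each library, with the number of thinned cells under each bar. In *Ednrb*+*Car4*+ cells the share with a UMI was 41.5% in control and 13.4% in *Dnmt1*iECKO, and in *Kit*+*Bmp6*+ cells 23.8% and 4.49%.

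Outside the endothelium few cells held *Cyp1a1*. T cell-like cells held 1 UMI in 304 control and 1 in 1368 *Dnmt1*iECKO cells. All immune-like cells together had a UMI in 1.89% of 1114 control and 0.228% of 3956 *Dnmt1*iECKO cells, with medians of 10861 and 10153 UMIs per cell, against medians of 9595.5 and 9761.5 in TECs. Monocyte-like cells held 32 of the 76 control UMIs, beside 82 UMIs of the endothelial gene *Cdh5*, and none in *Dnmt1*iECKO, where they held 28 of *Cdh5*. The ratio of *Cyp1a1* to *Cdh5* was 242 per 1000 in control immune-like cells and 168 in control TECs, and 61.4 and 30.4 per 1000 in *Dnmt1*iECKO. Whether these UMIs came from free RNA or from cells joined to an EC was not tested.

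*Cyp1b1*, a second cytochrome P450 that AHR induces and that also metabolizes estrogens and retinoids, did not follow *Cyp1a1*. It had 1.83 CPM in control and 5.54 CPM in *Dnmt1*iECKO TECs, which gives a log2 ratio of 1.60 (1.22 to 1.98). This rested on 102 UMIs in 21 control cells and 143 UMIs in 20 *Dnmt1*iECKO cells, and the highest *Dnmt1*iECKO cell alone held 56. Of these UMIs, 82 in control and 121 in *Dnmt1*iECKO lay in cells with at least 3 stromal markers, and the carrier cells had 175 and 221 CPM of *Cdh5*, far below the 1348 and 1267 CPM of other TECs. In TECs led by the endothelial panel 20 and 19 UMIs remained, a ratio of 1.09, and without cells with *Ubd*, *Cxcl9*, *Ido1*, *Mki67* or *Top2a*, an alternative chosen after seeing the data, the ratio turned to −0.41.

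In *Ednrb*+*Car4*+ cells *Cyp1b1* had no UMI in either library, and 3 UMIs, taken as the limit of a count of 0, would be 0.288 and 0.929 CPM. *Kit*+*Bmp6*+ cells held 6 UMIs, all in 1 control cell. *Slc6a2*+*Selp*+ cells had 20.2 CPM in control and 13.2 CPM in *Dnmt1*iECKO, from 17 and 16 UMIs. *Mki67*+*Top2a*+ TECs held 8 UMIs and *Gja5*+*Bmx*+ cells 1, all in *Dnmt1*iECKO. Most of its UMIs, 79 in control and 126 in *Dnmt1*iECKO, lay in TECs outside the 4 classes, where it had 3.63 and 10.8 CPM. Cells of this group may hold another pair, such as *Mki67*+*Top2a*+, so these counts are not separate. Fibroblast-like cells had the highest level of all, 28.4 CPM in control and 50.1 CPM in *Dnmt1*iECKO.

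*Nqo1*, a quinone reductase driven both by AHR and by the oxidant sensor NRF2, was found in 241 control and 62 *Dnmt1*iECKO TECs. It had 307 UMIs, or 5.51 CPM, in control and 75 UMIs, or 2.91 CPM, in *Dnmt1*iECKO, a log2 ratio of −0.92 (−1.31 to −0.55). *Ednrb*+*Car4*+ cells had 13.7 CPM in control and 4.65 CPM in *Dnmt1*iECKO, a ratio of −1.56 (−2.44 to −0.79), from 143 and 15 UMIs. *Kit*+*Bmp6*+ cells had a far lower control level, 1.35 CPM from 30 UMIs, and 0.325 CPM from 3 UMIs in *Dnmt1*iECKO. *Slc6a2*+*Selp*+ cells held 1 UMI in control and 7 in *Dnmt1*iECKO, and the ratio there was not resolved, with an interval from −0.69 to 7.77.

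The level of *Nqo1* was highest outside the blood endothelium. *Hmga2* encodes a chromatin protein of embryonic and tumor cells. Cells gated on *Hmga2* and on the absence of *Cdh5* had 31.1 CPM in control and 21.5 CPM in *Dnmt1*iECKO. *Prox1*+*Mmrn1*+ TECs had 16.9 and 27.3 CPM from 10 and 9 UMIs. When cells with *Epcam*, *Cspg4* or *Myh11* were left among the TECs, the control held 533 *Nqo1* UMIs and the *Dnmt1*iECKO library 261, and the log2 ratio was only −0.10.

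*Aldh1a1* encodes an enzyme that makes retinoic acid from retinal. It had 27.3 CPM in control and 45.2 CPM in *Dnmt1*iECKO TECs, which gives a log2 ratio of 0.73 (0.62 to 0.84), with a UMI in 9.23% and 13.3% of cells. The named classes differed in this. *Kit*+*Bmp6*+ cells had 20.2 and 21.4 CPM, a ratio of 0.09 (−0.16 to 0.33) that became 0.55 when the marker pair only had to sum to 2 UMIs. *Slc6a2*+*Selp*+ cells had 23.8 and 18.1 CPM, a ratio of −0.40 (−1.34 to 0.55) that moved to −1.67 when classes were gated after thinning. *Gja5*+*Bmx*+ cells held none in either library. *Ednrb*+*Car4*+ cells had 10.5 and 18.9 CPM, but 10 cells held 80.3% of the 61 *Dnmt1*iECKO UMIs and 1 held 26, and when doublets were removed at 0.8% per 1000 cells the ratio fell from 0.85 to −0.00054. TECs outside the 4 classes had 43.2 CPM in control and 75.6 CPM in *Dnmt1*iECKO.

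The stromal markers moved with *Aldh1a1* and *Cyp1b1*. Of the 10 stromal panel genes 8 were found in the TECs of both libraries, *Cspg4* and *Myh11* being at 0 by the filter, and their summed level was 483 CPM in control and 979 CPM in *Dnmt1*iECKO. In cells with at least 3 stromal markers lay 447 of the 1520 control and 500 of the 1165 *Dnmt1*iECKO UMIs of *Aldh1a1*. In TECs led by the endothelial panel the stromal sum was 61.7 and 68.2 CPM, and *Aldh1a1* had a log2 ratio of 0.55 (0.40 to 0.70) from 924 and 604 UMIs. The part of stromal RNA in the remaining values was not tested.

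Among all cell types *Aldh1a1* was highest in alveolar type 1-like cells, with 335 CPM in control and 234 CPM in *Dnmt1*iECKO, followed by mesothelial-like cells with 176 and 192 CPM, of which there were 12 and 9, and fibroblast-like cells with 149 and 167 CPM. Its near-identical neighbour *Aldh1a7* had 13 and 11 UMIs in TECs and 78.8 and 75.0 CPM in alveolar type 2-like cells, where *Aldh1a1* had 16.3 and 7.26 CPM. Reads that match both genes were not measured, so the *Aldh1a1* values are uncertain to that extent.

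**Figure D4:**
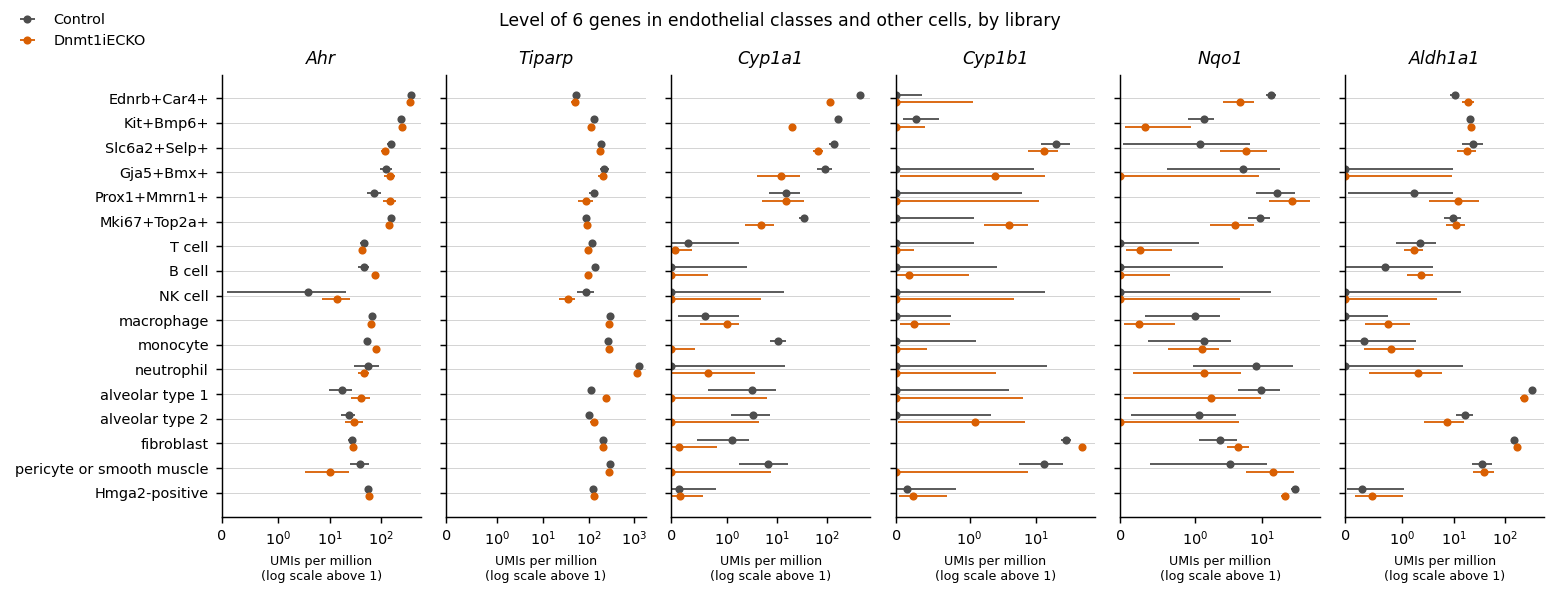
Level of 6 genes (CPM, log axis above 1 and linear below) in endothelial classes and in other cells gated by their markers, with Control in grey and *Dnmt1*iECKO in orange and exact Poisson 95% intervals. *Cyp1a1* and *Ahr* peaked in *Ednrb*+*Car4*+ cells, *Tiparp* in neutrophil-like cells, *Cyp1b1* in fibroblast-like cells and *Aldh1a1* in alveolar type 1-like cells.

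Within 1 class, cells with *Cyp1a1* were compared with cells without it, which describes how the genes went together from cell to cell. In control *Ednrb*+*Car4*+ cells, 412 cells with a *Cyp1a1* UMI after thinning had 19.4 CPM of *Nqo1* and 580 cells without had 9.97 CPM, a log2 ratio of 0.96 (0.46 to 1.46). *Ahr* was 434 CPM with and 356 CPM without, a ratio of 0.28 (0.19 to 0.38). *Tiparp* and *Aldh1a1* went the other way. *Tiparp* was 45.1 CPM with and 56.9 CPM without, a ratio of −0.34 (−0.60 to −0.08), and *Aldh1a1* 4.12 CPM against 14.8 CPM. *Ednrb*, the marker of the class, was 2083 and 1582 CPM in these cells, so the cells with *Cyp1a1* also carried more of the class marker, and its part in the other values was not tested. Over all control TECs, without thinning, the stromal panel summed to 103 CPM in cells with a *Cyp1a1* UMI and 900 CPM in cells without, and its part in the *Aldh1a1* values was not tested.

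In *Dnmt1*iECKO only 40 *Ednrb*+*Car4*+ cells had *Cyp1a1* after thinning, with no *Nqo1* UMI among them and 15 among the 259 others. *Ahr* in these cells was 432 against 372 CPM, an interval of −0.01 to 0.44. In control *Kit*+*Bmp6*+ cells *Nqo1* had 4 UMIs in 465 cells with *Cyp1a1* and 26 in 1486 without, a ratio not resolved from 0. *Tiparp* had 130 and 128 CPM in these cells, a ratio of 0.02 (−0.11 to 0.15). *Ahr* was 274 and 244 CPM there, and 255 and 263 CPM in the same split of *Dnmt1*iECKO *Kit*+*Bmp6*+ cells, an interval of −0.34 to 0.24. The *Dnmt1*iECKO *Kit*+*Bmp6*+ cells with *Cyp1a1* had 30 UMIs of *Aldh1a1* in 35 cells, but 28 of them lay in 1 cell.

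**Figure D5:**
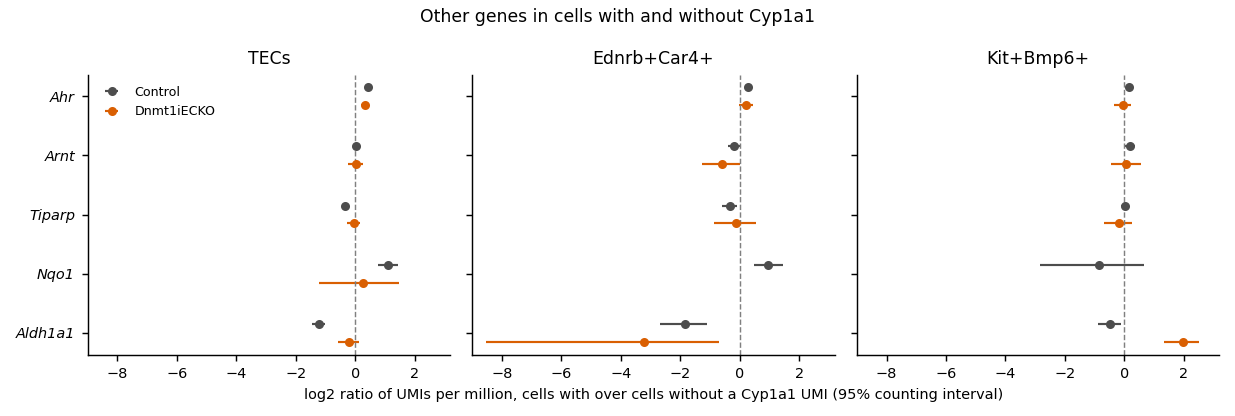
Log2 ratio of CPM of 5 genes (vertical axis) in cells with over cells without a *Cyp1a1* UMI after thinning, in all TECs and in the 2 largest classes, with Control in grey, *Dnmt1*iECKO in orange and 95% counting intervals. In the control *Ednrb*+*Car4*+ cells *Nqo1* lay at 0.96 and *Aldh1a1* at −1.84.

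For the gene lists that follow, the shares of all genes at least 1.5-fold higher and lower in TECs were 7.69% and 2.05%, and the median log2 ratio was −0.01. Of 11 chaperones and partners of the receptor, 10 had enough UMIs and none was past 1.5-fold in TECs, with a median log2 ratio of 0.02. The chaperone gene *Hsp90ab1* had 1988 CPM in control and 1706 CPM in *Dnmt1*iECKO. Of 18 targets of AHR beyond the 8 genes, 10 had enough UMIs, of which 3 were higher and none lower, with a median of −0.06. These were the inflammatory genes *Il6* with 19.7 and 41.4 CPM, *Ptgs2* with 48.5 and 98.1 CPM and *Il1b* with 3.84 and 9.85 CPM, which other signals induce as well. Few of the *Ptgs2* UMIs lay in the large classes, 15 of the 2699 control UMIs in *Ednrb*+*Car4*+ and 33 in *Kit*+*Bmp6*+ cells, where its levels were 1.44 and 2.17 CPM and 1.48 and 4.22 CPM. *Il6* had 5.76 and 8.98 CPM in *Ednrb*+*Car4*+ and 3.51 and 12.7 CPM in *Kit*+*Bmp6*+ cells. *Il1b* had 7.49 and 16.1 CPM in *Ednrb*+*Car4*+ and 2.79 and 7.25 CPM in *Kit*+*Bmp6*+ cells. The stromal sum given above moved with these 3 genes over all TECs, and its part was not tested. *Cyp1a2*, the closest relative of *Cyp1a1*, held 2 UMIs in control and none in *Dnmt1*iECKO, and *Nfe2l2*, which encodes NRF2, had 240 and 230 CPM.

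Enzymes that turn tryptophan into AHR ligands were also counted. Of 12 genes 6 had enough UMIs, with a median log2 ratio of 0.10, and 1 was higher in *Dnmt1*iECKO TECs, *Il4i1*, a tryptophan oxidase, with 0.898 and 2.40 CPM. *Ido1*, which opens the kynurenine route, had 22.7 CPM in control and 25.0 CPM in *Dnmt1*iECKO TECs, but 22.2 and 35.0 CPM in *Kit*+*Bmp6*+ cells, a log2 ratio of 0.66 (0.45 to 0.87). It ran the other way in *Ednrb*+*Car4*+ cells, with 22.2 and 16.4 CPM (−0.89 to 0.0029). TECs outside the 4 classes also had less in *Dnmt1*iECKO, 24.6 and 20.0 CPM, a ratio of −0.30 (−0.53 to −0.077). In *Gja5*+*Bmx*+ cells *Ido1* was higher in *Dnmt1*iECKO, with 7.66 and 68.5 CPM from 3 and 28 UMIs, a ratio of 3.16 (1.47 to 5.52). *Slc6a2*+*Selp*+ cells held 1 and 7 of its UMIs, and *Prox1*+*Mmrn1*+ cells 0 and 7. *Cyp1a1* was not higher in cells with *Ido1*. In control TECs it had 169 CPM in 129 cells with an *Ido1* UMI after thinning and 226 CPM in 4368 without, and in *Dnmt1*iECKO 22.6 CPM in 64 cells and 38.4 CPM in 1830. Cells with *Ido1* also had less *Ednrb*, 376 against 487 CPM in control and 199 against 311 CPM in *Dnmt1*iECKO, whose part was not tested. Within control *Ednrb*+*Car4*+ and *Kit*+*Bmp6*+ cells the ratio of *Cyp1a1* was −0.63 and −0.57. In *Dnmt1*iECKO it was not resolved, with intervals of −2.76 to 0.49 and −1.46 to 0.95.

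Of 14 NRF2 genes other than *Nqo1*, 13 had enough UMIs, with a median log2 ratio of −0.038, and 2 were higher, the cystine transporter *Slc7a11* with 4.17 and 7.44 CPM and *Mgst1*, a glutathione transferase gene, with 40.3 and 65.8 CPM, and none was lower. *Mgst1* was not higher in the large classes, with 21.2 and 14.6 CPM in *Ednrb*+*Car4*+ and 22.1 and 21.3 CPM in *Kit*+*Bmp6*+ cells, and the stromal sum given above moved with it over all TECs. *Gclc* and *Gclm*, which make glutathione, had 65.1 and 78.7 CPM in control and 56.1 and 67.8 CPM in *Dnmt1*iECKO. Of 16 retinoid genes 12 had enough UMIs, with a median log2 ratio of 0.15, and 4 were higher and 2 lower. Among the higher ones were *Aldh1a2*, *Aldh1a3* and *Rarb*, and the lower ones were *Crabp1*, a retinoic acid carrier, with 35.0 and 13.2 CPM, and *Cyp26b1*, which degrades retinoic acid, with 15.8 and 10.5 CPM. Within the large classes 3 of these ran opposite to their ratio over all TECs. *Aldh1a2* was 3.51 and 1.08 CPM in *Kit*+*Bmp6*+ cells, and *Rarb*, a retinoic acid receptor gene, was 14.3 and 5.89 CPM in *Ednrb*+*Car4*+ cells. *Crabp1* was 3.73 and 5.73 CPM in *Kit*+*Bmp6*+ cells and 3.65 and 5.27 CPM in *Ednrb*+*Car4*+ cells. Of 15 genes of the ADP-ribose family of *Tiparp*, with a median log2 ratio of −0.039, 1 was higher, *Parp3* with 9.07 and 19.0 CPM, and none lower.

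Other cytochromes P450 were listed too. Of 10 other genes of P450 enzymes and their reductase, 6 had enough UMIs, with a median log2 ratio of −0.29, and 3 were lower and 1 higher in *Dnmt1*iECKO TECs, where 2.05% and 7.69% of all genes were. *Cyp4b1*, a fatty acid and xenobiotic hydroxylase of lung, had 605 CPM in control and 283 CPM in *Dnmt1*iECKO, a log2 ratio of −1.10 (−1.13 to −1.06), and in *Kit*+*Bmp6*+ cells 310 and 123 CPM. *Ednrb*+*Car4*+ cells, which were fewer among the *Dnmt1*iECKO TECs, had more of it, 1521 and 1112 CPM, a ratio of −0.45 (−0.50 to −0.40). In that class no listed P450 gene was lower by 1.5-fold, where 6.42% of all genes were, and 1 of 4 was higher, *Cyp26b1* from 18 and 10 UMIs, where 5.26% were. In *Kit*+*Bmp6*+ cells 4 of 7 were lower and 1 higher, where 5.29% and 6.33% of all genes were. Over all TECs *Cyp2b10* had 2.30 and 1.05 CPM, and *Cyp26b1* was named above. *Cyp27a1* was the higher one over all TECs with 2.01 and 3.02 CPM, while *Por*, the reductase that feeds electrons to these enzymes, had there 66.5 and 68.8 CPM.

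The same count was made within the classes, over genes with at least 20 UMIs. In *Ednrb*+*Car4*+ cells 2 of 6 measured pathway genes were lower, where 6.42% of all genes were, and 1 was higher, where 5.26% were. In *Kit*+*Bmp6*+ cells 3 of 7 were lower, *Ahrr*, *Cyp1a1* and *Nqo1*, where 5.29% of all genes were, and none was higher, where 6.33% were. The ratio of *Ahrr* there, from 18 and 4 UMIs, had an interval of −2.93 to 0.70 and became −0.16 when classes were gated after thinning, and that of *Nqo1* went from −2.05 to −0.56 when the pair only had to sum to 2 UMIs, both then within 1.5-fold. In *Slc6a2*+*Selp*+ cells 2 of 6 were lower, *Cyp1a1* and *Cyp1b1*, where 11.2% of all genes were, and none higher, where 9.03% were. For *Cyp1b1* there the interval ran from −1.70 to 0.45, and the log2 ratio of −0.62 became 0.097 without cells with *Ubd*, *Cxcl9*, *Ido1*, *Mki67* or *Top2a*. In *Gja5*+*Bmx*+ cells 2 of 4 were lower, *Arnt* and *Cyp1a1*, where 15% were, and none higher, where 10.8% were. The ratio of *Arnt* there became −0.14 when the pair only had to sum to 2 UMIs, within 1.5-fold.

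Levels across 13 cell classes in both libraries, 26 points that share their libraries, were used to find the genes most like each of the 8 by Pearson's r of log2(CPM + 10), as a description. *Ahr* was most like *Rtp3*, *Dipk2b* and *Icam2*, with r of 0.95, 0.95 and 0.94. *Cyp1a1* was most like *Gm9917*, *Hspa12b* and *Gm46367*, with r of 0.95, 0.92 and 0.92. *Gm9917* and *Gm46367* both overlap genes on the other strand, *Hyal2*, *Tusc2* and *Rassf1* for the first and *Numb* for the second. *Ahr* and *Cyp1a1* themselves had r of 0.85, the highest among pairs of the pathway genes, and *Cyp1b1* and *Aldh1a1* came next with 0.57. Other pathway genes did not go with *Cyp1a1* in this way. Its r was 0.15 with *Nqo1*, 0.11 with *Aldh1a1*, 0.07 with *Cyp1b1*, −0.11 with *Arnt* and −0.43 with *Tiparp*. *Tiparp* was most like *Slc16a3*, *Lpcat2* and *Ndel1*, *Cyp1b1* like *Cygb*, *B130024G19Rik* and *Cyp7b1*, *Nqo1* like *Ndst3*, *Asns* and *Rala*, and *Aldh1a1* like *Selenbp1*, *Mettl7a1* and *Ces1d*, with r between 0.84 and 0.97. *Arnt* had its best with *Rab4b* at 0.81, and *Ahrr* had too few UMIs to be compared.

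In the GENCODE annotation of GRCm38, *Cyp1a1* lies at chr9:57687928-57703824 on the plus strand, *Ahr* at chr12:35497974-35535038 on the minus strand, *Nqo1* at chr8:107388225-107403206 on the minus strand and *Aldh1a1* at chr19:20492715-20643465 on the plus strand. *Ahr* overlaps the noncoding gene *Gm48236* and *Aldh1a1* the noncoding *C730002L08Rik*, both on the opposite strand, and the authors' strand setting is not given in the sources used here. *Cyp1a1*, *Cyp1b1*, *Nqo1* and *Ahrr* overlap no other gene.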

How the data were processed

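The deposited values are UMI counts per gene and cell of 1 Control and 1 *Dnmt1*iECKO library, made by the authors with Cell Ranger 9.0.1 on mm10, with cells called and no normalization. The pathway genes and all gene and marker lists were chosen with earlier results of these data known. Cells with fewer than 500 detected genes or over 10% mitochondrial UMIs were dropped, and the top Scrublet scores (scanpy 1.11.5), at 0.4% per 1000 cells, were removed as doublets, 257 and 263 cells, leaving 7764 and 7839. The gene minimum of the study's methods could not be applied as written, so 500 was used. Endothelial classes had UMIs of both genes of a pair and of no other complete pair. Other cells were gated after thinning to 2000 UMIs, by at least 3 markers of a panel and, for subtypes, at least 2 markers, in each case more than of any other. *Hmga2*-positive cells had a UMI of that gene after thinning, fewer than 3 immune markers and no *Cdh5* UMI. Cells with *Hmga2* after thinning were left out of the stromal cells.

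CPM were taken from UMIs summed over the cells of a class in a library. Their 95% intervals are exact Poisson intervals, while ratios have the exact interval given their summed count. Clopper-Pearson intervals go with shares. A count of 0 was given the level of 3 UMIs as its limit. With 1 library per condition no test was made. A gene was counted as past the fold at 1.5-fold, after adding 0.5 to each count, among genes with at least 100 UMIs in TECs or 20 in a class. Named genes are the 8 pathway genes, listed genes past that fold in TECs with examples of the rest, and the 3 genes most like each of the 8. Values used Python 3.11.15, numpy 2.4.6, scipy 1.17.1, pandas 2.3.3 and matplotlib 3.10.9. In simulated counts of 13011 genes, intervals held the true value for 95.4% of 12811 unchanged genes. These counts were independent Poisson draws, as the intervals assume. The simulation therefore checks the calculation only, and cannot test the clustering of UMIs in few cells or the spread between mice. Alternatives changed the cell filters, doublets, TEC and class gates, scaling, fold and minimum. Of 32285 gene identifiers 32158 were found in GENCODE.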

Additional observations from a re-analysis of the deposited data

How the results depend on the processing

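No paired analysis was possible because each condition had 1 library and the labels give no numbers that pair them, and no library could be left out. Over 12 alternatives for all TECs, the log2 ratio of *Cyp1a1* lay between −2.74 and −2.42, that of *Nqo1* between −1.06 and −0.10, that of *Aldh1a1* between 0.43 and 1.00, that of *Ahr* between −0.30 and −0.050, and that of *Arnt* between 0.028 and 0.22, all with the direction of the reported value, whereas *Cyp1b1* ranged from −0.41 to 1.63. The cause of each shift below was not tested.

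Keeping cells with *Epcam*, *Cspg4* or *Myh11* gave −0.30 for *Ahr*, 0.028 for *Arnt*, −2.74 for *Cyp1a1*, −0.10 for *Nqo1* and 0.49 for *Aldh1a1*. Requiring both *Cdh5* and *Pecam1* gave −0.10 for *Ahr*, 0.70 for *Cyp1b1* and 0.43 for *Aldh1a1*. TECs led by the endothelial panel gave −0.10 for *Ahr*, 1.09 for *Cyp1b1* and 0.55 for *Aldh1a1*. Doublets at 0.8% per 1000 cells gave −2.47 for *Cyp1a1*, 0.92 for *Cyp1b1* and 0.55 for *Aldh1a1*, and no doublet removal 0.89 for *Aldh1a1*. Without cells with *Ubd*, *Cxcl9*, *Ido1*, *Mki67* or *Top2a*, which was chosen after seeing the data, the ratios were −2.42 for *Cyp1a1*, −0.41 for *Cyp1b1*, turned from 1.60, and 1.00 for *Aldh1a1*. The mean of CPM per cell gave −0.11 for *Ahr* and 1.19 for *Cyp1b1*. The class composition of the control gave −0.050 for *Ahr*, −0.091 for *Tiparp* and −2.43 for *Cyp1a1*. Size factors shifted every ratio by 0.0096.

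Log2 ratios of the share of TECs with a UMI went from −0.03 to −0.13 for *Ahr* upon thinning, from 0.13 to 0.28 for *Arnt*, from −1.69 to −2.01 for *Cyp1a1* and from −0.73 to −1.66 for *Nqo1*. At a fold of 2, 313 genes were higher and 89 lower in TECs instead of 1001 and 267, and with at least 10 UMIs 2488 and 969. Of listed pathway genes 5 instead of 12 were higher at a fold of 2, and 19 with at least 10 UMIs.

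Within classes, *Ahr* in *Slc6a2*+*Selp*+ cells turned from −0.38 to 0.040 when the pair had to sum to 2 UMIs, and *Aldh1a1* in *Ednrb*+*Car4*+ cells from 0.85 to −0.00054 with doublets at 0.8%. *Tiparp* in *Gja5*+*Bmx*+ cells moved from −0.11 to −1.58 when classes were gated after thinning, which left 16 *Dnmt1*iECKO UMIs, and *Aldh1a1* in *Slc6a2*+*Selp*+ cells from −0.40 to −1.67. In *Kit*+*Bmp6*+ cells *Aldh1a1* moved from 0.09 to 0.55 with the pair summing to 2 UMIs. *Dnmt1* itself was −0.46 instead of −0.88 when cells with *Epcam*, *Cspg4* or *Myh11* were kept. *Cyp1a1* stayed negative in the 12 alternatives of each class, except that *Gja5*+*Bmx*+ cells had a value in only 11, with none when classes were gated after thinning. Depth limits *Ahrr*, *Cyp1b1* and, within classes, *Nqo1*.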
